A study of Arabidopsis thaliana with 14 samples.

Results

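The 52 transcripts described here were higher on KAR1 than on water in every one of 7 harvests of Arabidopsis thaliana seed. They were chosen on these differences themselves. For each harvest the log2 intensity of the water array was subtracted from that of the KAR1 array, with intensities under 16 raised to 16. A probe set was kept where all 7 differences lay above 0 and their mean was at least 0.4. Of 13513 probe sets with exactly 1 annotated gene, 58 met these numbers (0.429%), and 6 of them (AT3G60290, AT3G55720, AT2G16365, AT3G52740, AT3G44450 and HYH) are left out by the same rule, which leaves 52. The same rule turned downward found 25 probe sets (0.185%). A mean of at least 0.4 was reached by 0.644% of the 13513, whatever the single harvests. Over all 22746 probe sets that are no control, named or not, 1.99% had all 7 differences above 0, and 0.620% did so with a mean of at least 0.4, against 0.193% in the other direction. Because the choice used the KAR1 differences, they are given as a description with no test. No other probe set with 1 gene of the annotation stands for the same genes.

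All seed was primary dormant, of the Landsberg erecta background, and taken from plants grown in continuous light. It was imbibed for 24 h at 20 °C under white light of 100 uE on 0.8% agar, either plain ("water") or with 1 uM KAR1, a butenolide present in smoke. The groups are wild type on water (n = 4 arrays), wild type on KAR1 (n = 4), ga1-3 on water (n = 3) and ga1-3 on KAR1 (n = 3). The mutant ga1-3 lacks an early enzyme of gibberellin synthesis in all its cells, and its seed does not germinate with or without KAR1. The annotation names no probe set for the mutated gene GA1, so the genotype labels could not be checked on it. Wild type harvests are lettered A to D and ga1-3 harvests A to C, and the labels call them distinct seed batches, so seed of the same letter in wild type and ga1-3 is not the same seed. Each array is one RNA extract of whole seed, in which fewer cells of a type and less RNA per cell cannot be told apart.

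Karrikins are sensed by the hydrolase-like receptor KAI2, which works with the F-box protein MAX2 to mark repressor proteins such as SMAX1 for breakdown. In Arabidopsis seed the compound promotes germination in the light and needs gibberellin synthesis to do so, and in seedlings it strengthens responses to light. The annotation names no probe set for any of 10 listed genes of this signalling path, so the receptor and its partners were not followed here.

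The values are deposited intensities after background adjustment and normalization by the authors, 1 per probe set and array, with no molecule count behind them. The number of arrays limits the precision. Array medians lay between 10.5 and 12.7, and 52.5% to 53.3% of probe sets lay at or under 16 on an array, while 12100 of 22746 lay above it on at least 1. By 45 probe sets of spiked-in control transcripts the arrays fell into 3 clusters. Wild type harvests A and B formed cluster 1. Cluster 2 took in ga1-3 A beside C and D of wild type, and is the only cluster with both genotypes. The remaining mutant harvests, B and C, formed cluster 3. Of 5 seed reserve markers the annotation names 1, the storage protein gene AT1G03890, at 687 to 2056 on all arrays; no probe set is named for 4 endosperm and 2 embryo epidermis markers.

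The means of the 52 members ran from 0.41 to 1.77 (log2), with a median of 0.60. The median was 0.00 over all probe sets and -0.01 over the 12100 above 16 on at least 1 array. A mean of at least 1 was reached by 5 members and one of 0.6 or more by 27. Single harvest differences ran from 0.01 to 2.44. In 9 members, among them AT4G35110, AT5G57785, AT2G16660 and AT5G08050, the smallest of the 7 was itself at least 0.4, and in 11 it was under 0.1. Within wild type every KAR1 array lay above every water array for 14 members, and within ga1-3 for 26. Over all 22746 probe sets the same held for 108 (0.475%) in wild type and 399 (1.75%) in ga1-3. Both held for 12 members and neither for 24, for which no share over all probe sets was computed. Over all 14 arrays it held for AT1G70420 alone among the 52, and for 9 of all 22746 probe sets (0.0396%). These counts rest on the values that chose the members. Just inside the threshold lay AT1G06690 and AT4G33660 at 0.42 and AT1G12250 at 0.41, and just outside it AT2G41000 at 0.395, AT1G55360 at 0.393 and AT4G10270 at 0.388. CP1 (mean 0.96), BGLU28 (0.84) and AT3G47800 (0.83) had large means and missed the rule by 1 harvest, with lowest differences of -0.07, 0.00 and -0.02. On 8 members some arrays lay at or under 16, and a difference that uses such an array is a lower bound. Dim signal bears on further members, since with a floor of 32 the rule was still met by 40 of the 52.

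**Figure D1:**
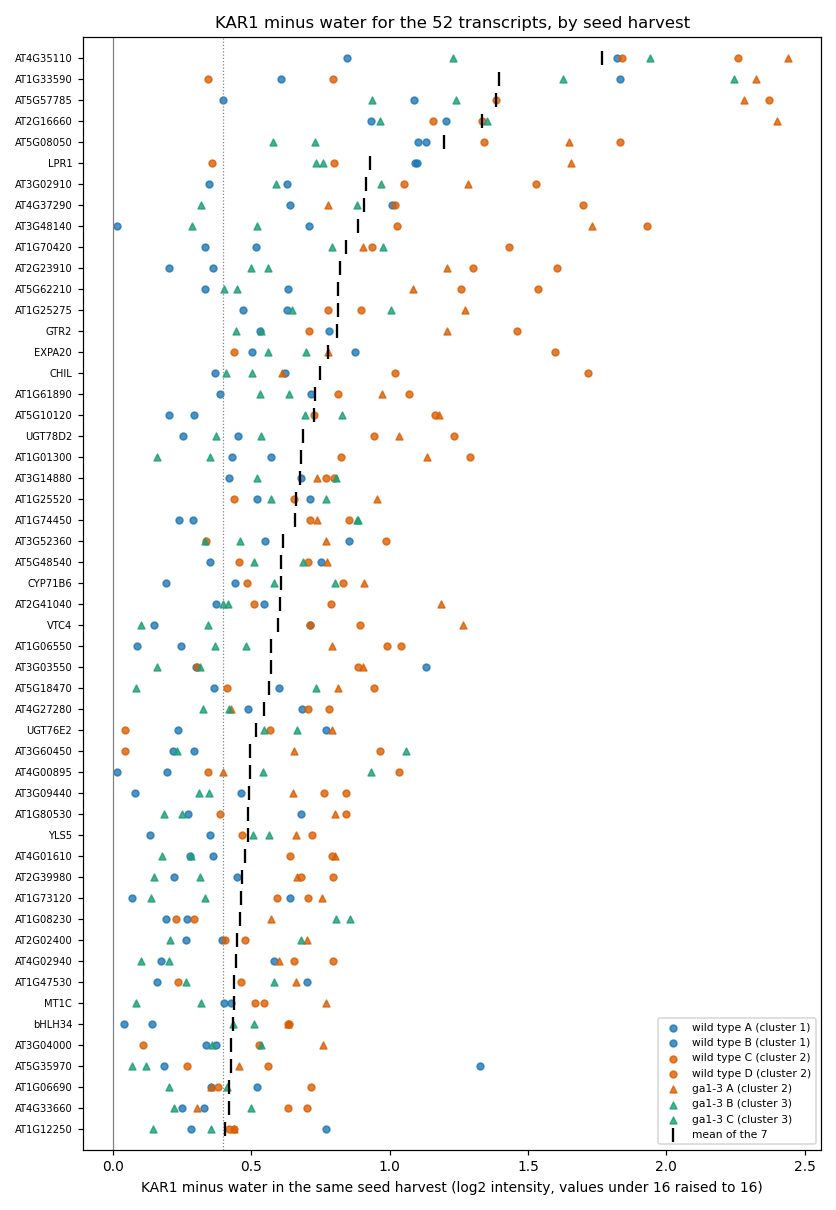
KAR1 minus water (log2 intensity, values under 16 raised to 16) for each of the 52 transcripts in each of the 7 seed harvests, with circles for wild type, triangles for ga1-3, colours for the 3 clusters of arrays and a black bar for the mean. Every point lies above 0 as the rule asks, and the orange points of cluster 2 lie mostly to the right of the others.

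The plot of all differences shows the members from the largest mean at the top to the smallest at the bottom. The largest mean belonged to AT4G35110, of a family of phospholipase-like proteins. AT4G35110 read 31.8, 96.1, 47.7 and 25.7 in wild type on water (harvests A to D) and 112, 173, 171 and 123 on KAR1. In ga1-3, AT4G35110 read 26.8, 75.6 and 117 on water and 145, 289.9 and 273 on KAR1. Within each genotype no KAR1 array overlapped with a water array, and water arrays of wild type B and ga1-3 C were the highest of their groups. Its mean difference was 1.77 ± 0.56 (SD, n = 7), 3.4-fold.

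AT5G57785, for which no role is given, had the third largest mean. AT5G57785 measured 480.5, 388, 279.5 and 69.1 in wild type on water and 634, 825, 729 and 357 on KAR1. In ga1-3, AT5G57785 read 129, 337 and 389.6 on water and 629, 797 and 746 on KAR1. Wild type D was low on both treatments and its KAR1 array lay under the water arrays of A and B, whereas the ga1-3 groups did not overlap. The mean difference was 1.39 ± 0.71 (SD, n = 7). AT1G70420, a protein of unknown function, was the member whose lowest KAR1 array lay above its highest water array over both genotypes. AT1G70420 had intensities of 50.6, 48.6, 43.1 and 24.7 in wild type on water and 63.7, 69.6, 82.5 and 66.6 on KAR1. In ga1-3, AT1G70420 read 49.9, 50.6 and 44.5 on water and 93.3, 87.7 and 87.6 on KAR1. Its water arrays lay close together apart from wild type D, which was lowest. The mean difference was 0.84 ± 0.35 (SD, n = 7).

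**Figure D2:**
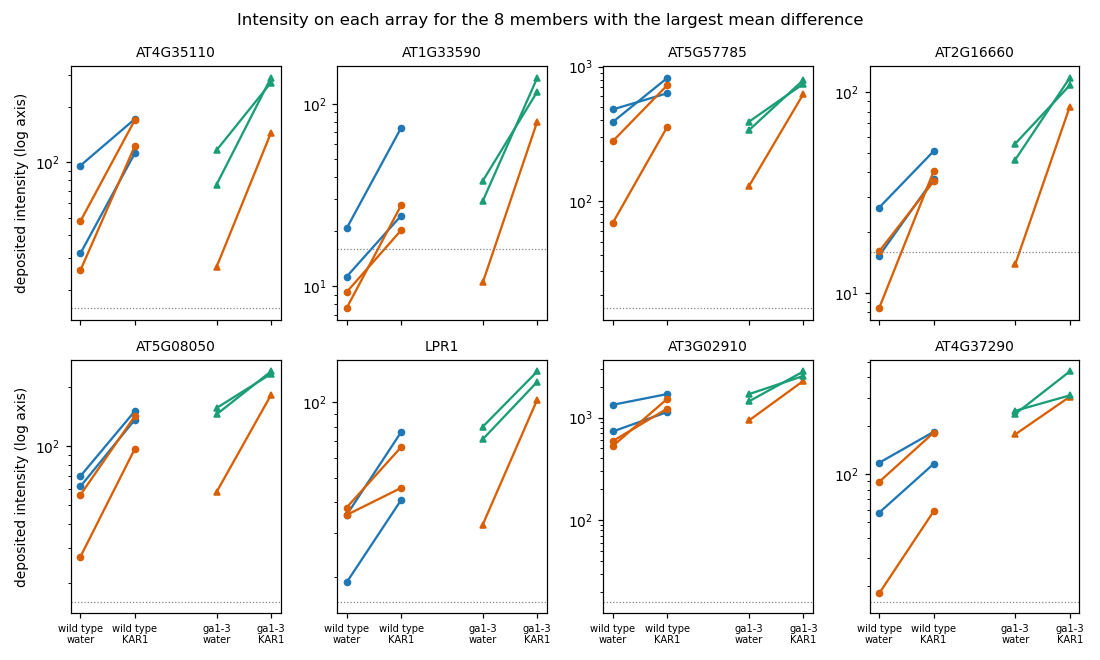
Deposited intensity (log axis) on each array for the 8 members with the largest mean difference, with a line joining the water and the KAR1 array of a harvest, circles for wild type, triangles for ga1-3, blue for cluster 1, orange for cluster 2 and green for cluster 3. The dotted line marks 16. All lines go up, and the ga1-3 A line is the steepest of the ga1-3 lines in every panel except that of AT4G37290.

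Membrane transport was the role of 7 members, with means of 0.44 to 1.34 and a median of 0.66. The largest was AT2G16660, of the major facilitator family. AT2G16660 read 15.3, 26.6, 16.1 and 8.4 in wild type on water and 36.9, 50.8, 35.9 and 40.3 on KAR1. In ga1-3, AT2G16660 read 13.9, 46.1 and 55.4 on water and 84.5, 118 and 108 on KAR1. The groups did not overlap within either genotype, although wild type A and D and ga1-3 A lay under 16 on water. Its mean difference was therefore at least 1.34, or 2.52-fold. In the plot of intensities for the largest members its ga1-3 A line starts below the lines of ga1-3 B and C.

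GTR2 (AT5G62680), which carries glucosinolates across the plasma membrane, differed by 0.81 ± 0.38 (SD, n = 7). GTR2 measured 62.9, 82, 107 and 48.9 in wild type on water and 108, 119, 175 and 135 on KAR1. In ga1-3, GTR2 read 93.5, 245 and 211 on water and 216, 355 and 288 on KAR1. In wild type the highest water array, of harvest C, stayed just under the lowest KAR1 array, while in ga1-3 the water array of B lay above the KAR1 array of A. AT1G25520, of a family of manganese transporters, had one of the most even differences, 0.44 to 0.96 with a mean of 0.66 ± 0.17 (SD, n = 7). AT1G25520 had intensities of 89.2, 87.2, 92.3 and 74.5 in wild type on water and 128, 143, 125 and 117 on KAR1. In ga1-3, AT1G25520 read 92.8, 121 and 100.5 on water and 180.0, 180.0 and 172 on KAR1. Both genotypes were free of overlap, and the spread among harvests was small on either treatment.

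The pair AT1G61890 and AT1G47530 belong to the MATE family of efflux carriers. AT1G61890 did not overlap within either genotype, and differed by 0.73 ± 0.24 (SD, n = 7). AT1G61890 read 38.3, 54, 61.1 and 38.6 in wild type on water and 63, 70.6, 107 and 81 on KAR1. In ga1-3, AT1G61890 read 55.6, 105 and 109 on water and 109, 152 and 169 on KAR1. The gap in ga1-3 was narrow, between the water array of C at 108.8 and the KAR1 array of A at 109.1. AT1G47530 differed by 0.44 ± 0.22 (SD, n = 7) with overlap in both genotypes. AT1G80530, another major facilitator, had 0.49 ± 0.28 (SD, n = 7). AT1G08230, a transporter of the amino acid GABA, was one of the most uneven between genotypes, at 0.25 ± 0.04 (SD, n = 4) in wild type and at least 0.75 ± 0.15 (SD, n = 3) in ga1-3, where the water array of A lay under 16.

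Specialised metabolism, flavonoids included, was the role of 7 members with means of 0.45 to 0.82. CHIL (AT5G05270) is a chalcone isomerase-like protein that aids flavonoid production. CHIL measured 98.3, 186, 128 and 30.5 in wild type on water and 127, 286, 259 and 100.2 on KAR1. In ga1-3, CHIL read 308, 801 and 719 on water and 471, 1136 and 955 on KAR1. Wild type D was lowest on both treatments and ga1-3 A lowest of its genotype, so that water and KAR1 arrays overlapped in both although every harvest was higher on KAR1. Its mean difference was 0.75 ± 0.48 (SD, n = 7), with 0.93 in wild type and 0.51 in ga1-3.

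UGT78D2 (AT5G17050), which adds glucose to flavonols and anthocyanidins, differed by 0.69 ± 0.38 (SD, n = 7). UGT78D2 had intensities of 260.0, 663, 383 and 242 in wild type on water and 356, 791, 737 and 569.6 on KAR1. In ga1-3, UGT78D2 read 486, 1526 and 1527 on water and 994, 2211 and 1976 on KAR1. Here too both genotypes overlapped, with ga1-3 B and C well above all other arrays. UGT78D1, a related enzyme of the same pathway and no member, had a mean of 0.79 with 1 harvest below 0. Of the 15 listed genes of the flavonoid pathway the annotation names 4; UGT78D2 was higher in all 7 harvests, and DFR and BAN lay at or under 16 on every array. The glycosyltransferase UGT76E2 (AT5G59590) differed by at least 0.52, with 1 water array under 16, and its ga1-3 groups did not overlap.

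AT2G23910 and AT2G02400 both resemble cinnamoyl-CoA reductases, the enzymes that begin the lignin branch. AT2G23910 read 89.1, 232, 145 and 44.3 in wild type on water and 102, 299, 358 and 135 on KAR1. In ga1-3, AT2G23910 read 364, 882 and 826 on water and 838, 1301 and 1167 on KAR1. AT2G23910 overlapped in both genotypes, with wild type D low and ga1-3 B and C high, and its mean difference was 0.82 ± 0.54 (SD, n = 7). AT2G02400 showed no overlap in either genotype at a smaller mean of 0.45 ± 0.19 (SD, n = 7). The cytochrome P450 CYP71B6 (AT2G24180) differed by 0.61 ± 0.26 (SD, n = 7). AT2G39980, an acyltransferase of the BAHD family, differed by 0.47 ± 0.25 (SD, n = 7), with overlap in wild type and none in ga1-3.

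Plastid proteins made up 5 members, with means of 0.41 to 1.20. AT5G08050 encodes a thylakoid membrane protein. AT5G08050 measured 62, 70.0, 56.1 and 27.1 in wild type on water and 136, 150.5, 142 and 96.6 on KAR1. In ga1-3, AT5G08050 read 58, 145 and 156 on water and 182, 240.0 and 233 on KAR1. There was no overlap within either genotype, with wild type D lowest on both treatments and ga1-3 A lowest of the mutant. It differed by 1.20 ± 0.46 (SD, n = 7), 2.29-fold. The others were smaller. AT2G41040, a methyltransferase, had 0.60 ± 0.29 (SD, n = 7). The reductases AT3G04000 and AT1G06690 had 0.43 and 0.42, and AT1G12250, a pentapeptide repeat protein of the thylakoid lumen, had 0.41. Of 12 listed genes of photosynthesis and chlorophyll synthesis the annotation names 3, of which PORB lay at or under 16 on every array. LHCB4.1 and LHCB4.3 were neither higher nor lower on KAR1 in all 7 harvests.

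Redox and metal handling was the role of 4 members. LPR1 (AT1G23010) is a multicopper oxidase of the root response to low phosphate. LPR1 had intensities of 19.1, 35.5, 35.5 and 38 in wild type on water and 40.7, 76, 45.5 and 66.2 on KAR1. In ga1-3, LPR1 read 32.5, 71.2 and 79.9 on water and 102, 121 and 133 on KAR1. No overlap occurred within a genotype, and ga1-3 A started low on water and ended near the other mutant harvests. The mean difference was 0.93 ± 0.41 (SD, n = 7), with wild type C smallest at 0.36. VTC4 (AT3G02870), a phosphatase of ascorbate synthesis, differed by at least 0.60. VTC4 read 31.3, 30.2, 35.8 and 28.4 in wild type on water and 51.3, 33.5, 58.7 and 52.7 on KAR1. In ga1-3, VTC4 read 17.2, 16 and 9.4 on water and 41.3, 17.2 and 20.3 on KAR1. The ga1-3 water arrays of B and C lay at or under 16, and both genotypes overlapped. MT1C, a metallothionein, and YLS5, of the DJ-1 family, had 0.44 and 0.49.

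Transcription and signalling took in 6 members, with means of 0.43 to 0.73. AT5G10120 belongs to the EIN3 family of transcription factors of ethylene signalling. AT5G10120 measured 267, 463, 433 and 325 in wild type on water and 307, 569, 718 and 728 on KAR1. In ga1-3, AT5G10120 read 566, 452 and 486 on water and 1280.4, 802 and 787 on KAR1. The ga1-3 groups lay apart, led by the KAR1 array of A, whereas wild type A stayed low on KAR1 and overlapped. The harvests averaged 0.73 ± 0.38 (SD, n = 7). AT3G14880, of the DOG1-like family, had the smallest spread among harvests of the 52, 0.68 ± 0.15 (SD, n = 7). AT3G14880 had intensities of 352, 464, 377 and 309 in wild type on water and 566, 620.0, 643 and 538 on KAR1. In ga1-3, AT3G14880 read 345, 279.9 and 320.4 on water and 575, 489.6 and 460.2 on KAR1. The groups did not overlap in either genotype. AT4G27280, an EF-hand calcium-binding protein, differed by 0.55 ± 0.17 (SD, n = 7) and did not overlap either. AT3G03550, a RING-type protein, bHLH34 and AT4G02940, which removes methyl groups from RNA, had 0.57, 0.43 and 0.45.

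Of the 40 listed genes of light signalling the annotation names 7, of which FHL lay at or under 16 on every array. HYH, AT3G52740, AT3G44450 and AT2G16365 were higher in all 7 harvests and are among those the rule leaves out. AT4G33980 was lower in all 7 at a mean of -0.55, and COR27 in 6 at -0.66. Of 26 gibberellin genes 5 are named, and GID1B lay at or under 16 on every array. GID1A, GID1C, SLY1 and SPY were neither higher nor lower in all 7 harvests, their means lying between -0.18 and 0.03. XERICO, the 1 named of 21 abscisic acid and dormancy genes, was lower in all 7 at -0.45. Of 18 seed storage and late embryogenesis genes 3 are named, and AT1G03890 was lower in all 7 at -0.61. HIS1-3 was lower in 6 harvests at a mean of -0.45, and LEA4-5 in 4 at -0.01. Of 7 auxin response genes 4 are named, but WES1 and GH3.3 lay at or under 16 on every array, and IAA29 and HAT2 on most, so they could not meet the rule in either direction. Beside these lists, 1.52% of all probe sets with 1 gene were higher in all 7 harvests and 1.81% lower. These shares also count probe sets at or under 16 on every array, which could be neither.

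Secreted, cell surface and cell wall proteins were 5 members. AT1G33590, a leucine-rich repeat protein, had the second largest mean of all. AT1G33590 read 11.3, 20.8, 9.3 and 7.6 in wild type on water and 24.4, 74, 20.3 and 27.8 on KAR1. In ga1-3, AT1G33590 read 10.5, 29.4 and 37.9 on water and 80.1, 139 and 117 on KAR1. On water 3 wild type arrays and ga1-3 A lay under 16, so the mean difference was at least 1.40. The ga1-3 groups lay far apart, whereas the wild type KAR1 array of C lay just under the water array of B. It had the largest difference between genotypes in the size of the KAR1 difference, 0.90 ± 0.65 (SD, n = 4) in wild type and 2.06 ± 0.38 (SD, n = 3) in ga1-3, with lower bounds in both.

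AT4G37290 encodes the precursor of a small secreted peptide. AT4G37290 measured 57.4, 118, 89.3 and 18 in wild type on water and 116, 183, 181 and 58.5 on KAR1. In ga1-3, AT4G37290 read 177, 237 and 248 on water and 303, 436 and 309 on KAR1. Wild type D was far below the other harvests on both treatments and the wild type groups overlapped, while the ga1-3 groups did not. Its mean difference was 0.91 ± 0.43 (SD, n = 7), and it was the member with the most negative genotype difference, 1.09 in wild type and 0.66 in ga1-3. EXPA20 (AT4G38210) is an expansin, a protein that loosens cell walls. EXPA20 had intensities of 17.5, 23, 25.1 and 16.2 in wild type on water and 24.8, 42.2, 34 and 49 on KAR1. In ga1-3, EXPA20 read 37.5, 83.6 and 85 on water and 64.3, 123 and 138 on KAR1. The wild type groups overlapped only through the KAR1 array of A and the water array of C, and ga1-3 A was low on both treatments. Its mean difference was 0.78 ± 0.39 (SD, n = 7). Of the 4 listed wall-loosening genes the annotation names out of 8, EXPA20 was the 1 higher in all 7 harvests; EXPA8 had a mean of 0.66 with 5 harvests above 0 and none below. AT5G48540, a secreted cysteine-rich protein, and AT5G18470, a lectin, had 0.61 and 0.57.

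Protein breakdown and folding took in 3 members. AT1G01300, an aspartyl protease, differed by 0.68 ± 0.42 (SD, n = 7). AT1G01300 read 94.9, 111, 129 and 129.6 in wild type on water and 141, 149, 229 and 317 on KAR1. In ga1-3, AT1G01300 read 138, 626 and 551 on water and 302, 698 and 704 on KAR1. Its wild type groups did not overlap, while in ga1-3 both arrays of A lay under both water arrays of B and C. AT4G01610, a cathepsin B-like protease, and AT3G09440, of the heat shock protein family HSP70, had 0.48 and 0.49.

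Among the remaining 15 members, AT3G02910, of the AIG2-like family, had a mean difference of 0.91 ± 0.42 (SD, n = 7). AT3G02910 measured 733, 1334, 591 and 529 in wild type on water and 1134, 1698, 1225 and 1527 on KAR1. In ga1-3, AT3G02910 read 938, 1442 and 1696 on water and 2287, 2822 and 2552 on KAR1. Wild type B was high on water, above the KAR1 arrays of A and C, and the ga1-3 groups did not overlap. AT5G62210, of an embryo-specific protein family, differed by 0.81 ± 0.48 (SD, n = 7). AT5G62210 had intensities of 329, 1251, 422 and 122 in wild type on water and 511, 1576, 1010.0 and 354 on KAR1. In ga1-3, AT5G62210 read 1166, 4930.5 and 4089 on water and 2473, 6520.3 and 5584 on KAR1. Harvests differed more than treatments did, from wild type D at the bottom to ga1-3 B at the top. AT1G25275, with no role given, differed by 0.81 ± 0.27 (SD, n = 7). AT1G25275 read 904, 711, 655 and 387 in wild type on water and 1253, 1100.4, 1123 and 721 on KAR1. In ga1-3, AT1G25275 read 401, 456 and 497 on water and 968, 916 and 778 on KAR1. The ga1-3 groups were far apart and the wild type groups overlapped through harvest D.

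AT3G48140, of the B12D family, was uneven, with 0.89 ± 0.72 (SD, n = 7). AT3G48140 measured 25.1, 20.1, 26.4 and 17.1 in wild type on water and 41, 20.3, 53.8 and 65.1 on KAR1. In ga1-3, AT3G48140 read 17.9, 21.2 and 30.4 on water and 59.4, 30.4 and 37.1 on KAR1. Wild type B hardly differed, at 0.01, and wild type D and ga1-3 A had the largest differences. Another uneven member was AT5G35970, with no role given, at 1.33 in wild type A and 0.07 to 0.56 in the other 6 harvests. AT1G74450, related to the BYPASS1 family, lay at 0.52 in wild type and 0.84 in ga1-3, and AT3G52360, with no role given, at 0.68 and 0.52. AT1G06550, AT3G60450, AT4G00895, AT1G73120 and AT4G33660 had means between 0.42 and 0.57. Of these AT4G00895 had 3 arrays at or under 16 and AT3G60450 had 1. With a floor of 32 the means of AT4G00895 and AT3G60450 were 0.02 and 0.31.

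The members lie on all 5 chromosomes, with 16, 7, 10, 8 and 11 on chromosomes 1 to 5. The closest pair was VTC4 and AT3G02910, with 5 protein-coding genes between them. AT1G06550 and AT1G06690 had 12 genes between them, AT2G23910 and CYP71B6 26, and AT1G25275 and AT1G25520 27.

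The differences were larger in some harvests than in others, in both genotypes. Wild type D had the largest difference of 25 members and ga1-3 A of 17, against 4 in ga1-3 B, 3 in wild type A, 2 in wild type C, 1 in wild type B and 0 in ga1-3 C. The median over the 52 was 0.82 in wild type D, 0.79 in ga1-3 A and 0.71 in wild type C, the harvests of cluster 2. It was 0.49 and 0.37 in wild type A and B, and 0.53 and 0.46 in ga1-3 B and C. The mean over cluster 2 exceeded that over the other harvests for 49 of 52 members, by a median of 0.32. Within wild type, C and D exceeded A and B for 42 members (median 0.34), and in ga1-3 A exceeded B and C for 48 (median 0.38). Over all 12100 probe sets above 16 on some array the median difference lay between -0.01 and 0.00 in every harvest, and the SD from 0.217 in ga1-3 C to 0.345 in ga1-3 A. Whether the cluster or the seed itself goes with the larger differences cannot be told apart, since each harvest lies in 1 cluster.

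**Figure D3:**
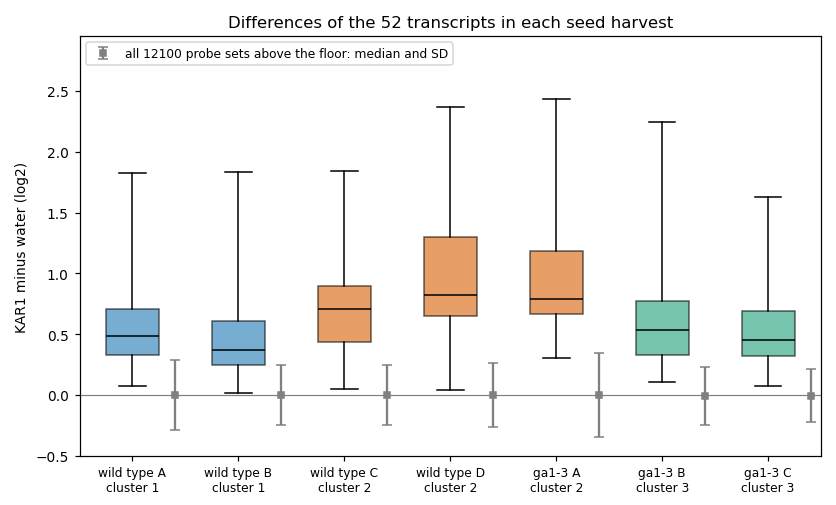
KAR1 minus water (log2) of the 52 transcripts in each harvest, as boxes of the quartiles with the median and whiskers to the lowest and highest member, coloured by cluster; grey squares and bars give the median and SD over the 12100 probe sets above 16 on some array. The medians of the orange boxes (wild type C and D, ga1-3 A) lie at 0.71 to 0.82 and those of the others at 0.37 to 0.53.

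The boxes by harvest show no comparable order by genotype. Averaged within genotypes, the difference was larger in ga1-3 for 24 members and smaller for 28, with a median of -0.04. Inside cluster 2 ga1-3 A exceeded the mean of wild type C and D for 33 members (median 0.10), and outside it ga1-3 B and C exceeded wild type A and B for 28 (median 0.04). The largest excess in ga1-3 belonged to AT1G33590 (1.17), AT1G08230 (0.50), AT2G16660 (0.42) and AT1G74450 (0.31), of which all had some arrays at or under 16. The most negative values were those of AT4G37290 (-0.43), CHIL (-0.42), AT5G35970 (-0.37) and AT5G08050 (-0.37). None of these was tested, as the rule used the same differences. Without the 3 harvests of cluster 2, an alternative chosen after seeing the data, 35 of the 52 still met the rule and the median of the 52 means was 0.45; in cluster 2 alone it was 0.75.

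The level of a transcript, taken as the mean of the water and KAR1 log2 values of a seed batch, is another quantity than the KAR1 difference that chose the members, and was tested between genotypes. The rule does bear on it. A difference above 0 needs a KAR1 array above 16, so every member lay above 16 on all 7 KAR1 arrays. The same held for 9743 of the 22746 probe sets. Level and difference also come from the same arrays, and are uncorrelated only where water and KAR1 arrays vary alike. In wild type the SDs on water and KAR1 were 1.26 and 0.53 for AT5G57785, and 0.37 and 0.58 for AT5G10120. The question was whether transcripts that are higher on KAR1 in both genotypes also differ between seed with and without gibberellin synthesis. Of the 52, 19 were higher in ga1-3 (36.5%) and 2 lower (3.85%) in limma's test on 4 wild type and 3 ga1-3 seed batches, at a Benjamini-Hochberg adjusted p under 0.05 over all probe sets. Over all 22746 probe sets 10.8% were higher and 5.32% lower, and over the 9743 above 16 on all KAR1 arrays 20% and 9.47%. The difference lay above 0 for 45 members (86.5%, against 59.9% of the 9743), with a median of 0.94 against 0.13. The genotypes did not overlap for 29 members (55.8%), against 24.1% of all probe sets and 46.4% of the 9743, and 15 of the 19 were among the 29. Genotype and cluster of arrays are mostly confounded, and with the cluster as a term 5 members were higher and 0 lower, as 627 and 326 of all probe sets were. Taking all 14 arrays with the seed batch as a random replicate block gave 34 higher and 2 lower, beside 3693 and 1862 of all probe sets. Genotype varies only between seed batches, so the 14 arrays are not independent replicates of it. Quantile normalization of the arrays moved the median difference of the 12100 from 0.08 to -0.02 and the calls over all probe sets from 2462 higher and 1210 lower to 1856 and 1731, with 17 and 2 among the members.

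**Figure D4:**
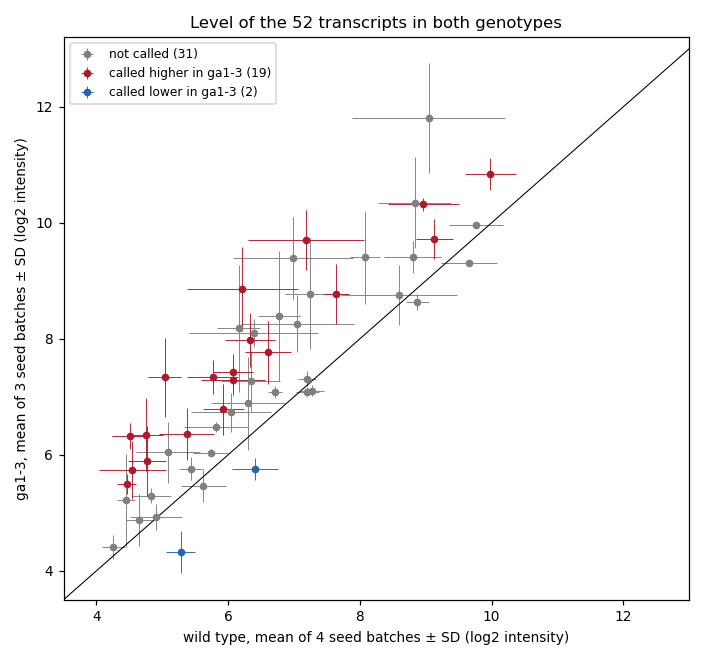
Mean level of each of the 52 transcripts in ga1-3 (3 seed batches, vertical) against wild type (4 seed batches, horizontal), in log2 intensity with SD bars; red points were called higher in ga1-3, blue lower and grey neither, and the line marks equal levels. Most points lie above the line, by a median of 0.94.

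The plot of levels in both genotypes shows the 19 above the line and the 2 below it. AT3G60450, of the phosphoglycerate mutase family, lay at 4.15, 4.45, 4.68 and 4.77 in wild type A to D and 6.52, 6.08 and 6.39 in ga1-3 A to C. All ga1-3 batches stood well above all wild type batches, by 1.82 ± 0.20 (SE, adjusted p = 3.23e-06). The methyltransferase AT2G41040 lay at 4.67, 5.21, 5.12 and 5.14 in wild type A to D and 6.56, 7.81 and 7.64 in ga1-3 A to C. Its ga1-3 batches again lay above every wild type batch, with A between, by 2.3 ± 0.29 (SE, adjusted p = 0.000399). AT1G06550, of the crotonase family of acyl-CoA enzymes, lay at 5.97, 6.93, 6.84 and 5.12 in wild type A to D and 8.03, 9.36 and 9.18 in ga1-3 A to C. It did not overlap and differed by 2.64 ± 0.60 (SE, adjusted p = 0.0442), the largest difference among the calls, but wild type batches spread over more than 1 log2 unit and the call was lost on leaving out any of wild type A to C or ga1-3 B or C (2.28 to 3.05 over the 7 fits that leave out a batch). AT2G23910, the reductase-like member, stood at 6.58, 8.04, 7.83 and 6.27 in wild type A to D and 9.11, 10.07 and 9.94 in ga1-3 A to C and differed by 2.52 ± 0.58 (SE, adjusted p = 0.0439). Its call was lost on leaving out any batch except wild type B (2.22 to 2.82 over the 7).

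**Figure D5:**
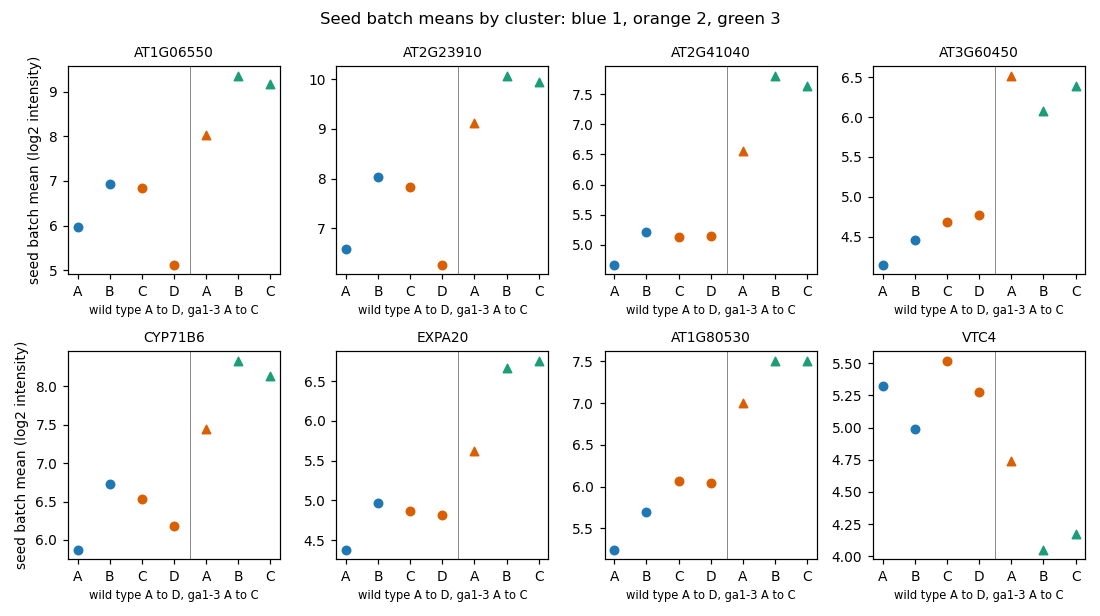
Seed batch means (log2 intensity, the mean of the water and the KAR1 array) of the 7 members with the largest called excess in ga1-3 and no overlap, and of VTC4, with circles for wild type A to D, triangles for ga1-3 A to C and colours for the clusters. Apart from VTC4, where the order is turned, every ga1-3 triangle lies above every wild type circle, and the orange triangle of ga1-3 A is the lowest of the mutant except in AT3G60450.

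In the plot of seed batch means ga1-3 A lies between wild type and ga1-3 B and C in 7 of the 8 panels, all but that of AT3G60450. Of 7 transport members 5 were higher in ga1-3, as were 19 of all 52 members and 20% of the 9743 probe sets above 16 on all KAR1 arrays. The role classes are small and were assigned by hand after the members were found. Differences between classes in these counts were not tested. AT1G80530 was higher by 1.57 ± 0.22 (SE, adjusted p = 4.96e-05). GTR2 and AT2G16660 were higher by 1.16 and 1.13, with no overlap of the genotypes, and AT1G61890 and AT1G47530 by 0.85 and 0.60, with overlap. The call of AT1G47530 was lost without wild type C or ga1-3 B or C (0.45 to 0.58), and that of AT1G61890 without ga1-3 C (0.70).

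Of the specialised metabolism members 4 of 7 were higher in ga1-3, beside 20% of the 9743 probe sets. CYP71B6 stood at 5.87, 6.73, 6.53 and 6.18 in wild type A to D and 7.45, 8.34 and 8.14 in ga1-3 A to C. Its batches did not overlap, and it was higher by 1.64 ± 0.25 (SE, adjusted p = 0.000494). UGT76E2 was higher by 1.04 ± 0.17 (SE, adjusted p = 0.000292), and AT2G39980 by 1.35, the latter not called without ga1-3 A (1.42). UGT78D2 and CHIL had differences of 1.51 and 2.40 with adjusted p of 0.126 and 0.0694 in limma's test, which missed the threshold. UGT78D1, the related gene outside the 52, was higher by 2.73 (adjusted p = 0.0336).

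Among secreted and wall proteins 3 of 5 were higher, beside 20% of the 9743 probe sets. The expansin EXPA20 stood at 4.38, 4.96, 4.87 and 4.82 in wild type A to D and 5.62, 6.67 and 6.76 in ga1-3 A to C. It did not overlap and was higher by 1.59 ± 0.27 (SE, adjusted p = 0.00181). AT5G48540 was higher by 1.36 ± 0.21 (SE, adjusted p = 0.000127). AT1G33590 was higher by 1.20, with overlap and with arrays under 16 in both genotypes, and lost its call without wild type C or D or ga1-3 B or C (1.04 to 1.15). The peptide precursor AT4G37290 had a difference of 1.71 that missed the threshold (adjusted p = 0.142), with no overlap of the genotypes.

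Redox and metal members were called in both directions. MT1C and LPR1 were higher by 1.22 and 0.99, and VTC4 was lower. VTC4 stood at 5.32, 4.99, 5.52 and 5.27 in wild type A to D and 4.74, 4.05 and 4.17 in ga1-3 A to C. Every ga1-3 batch lay below every wild type batch. The difference was -0.96 ± 0.19 (SE, adjusted p = 0.00165), with the ga1-3 water arrays of B and C at or under 16. With a floor of 32 the difference of VTC4 was -0.25 and it was not called. The second lower member was AT1G73120, with no role given, with a difference of -0.66 and overlapping genotypes. Its call was lost without wild type B or C or ga1-3 B or C (-0.61 to -0.58). AT4G33660, a small cysteine-rich membrane protein, and AT3G02910 were higher by 1.13 and 0.86, the latter with overlapping genotypes. None of the 6 transcription and signalling members and none of the 3 of protein breakdown and folding was called, and of the 5 plastid members AT2G41040 alone. Beside 20% higher and 9.47% lower among the 9743 probe sets, classes this small do not set one role apart from another.

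Among the 31 members not called, 9 had differences of 1 or more with adjusted p between 0.065 and 0.289. The largest was that of AT5G62210 at 2.76 ± 0.82 (SE), where the wild type batches had an SD of 1.16, and others were AT3G09440 at 2.02 and AT1G01300 at 1.54. The other 22 lay between -0.36 and 0.95. A difference that misses the threshold in 7 seed batches does not show equal levels.

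Plain eBayes, without trend or robust fit, left 7 members called higher. They were AT3G60450, AT2G41040, UGT76E2, AT1G80530, AT5G48540, EXPA20 and CYP71B6. GTR2, AT2G16660, LPR1, MT1C, VTC4 and AT4G33660 were among those called neither in that fit nor with the cluster as a term. With the cluster as a term the 5 members still called higher were AT3G60450, AT2G41040, UGT76E2, AT1G80530 and AT5G48540. That fit compares the genotypes inside cluster 2, where ga1-3 has the 1 batch A, so it does not test whether a difference recurs among ga1-3 batches. Inside cluster 2 the difference was 1.79 for AT3G60450, 1.43 for AT2G41040, 1.19 for UGT76E2, 0.94 for AT1G80530 and 0.95 for AT5G48540. Over the 52 its median was 0.44, against 0.94 over all batches, and 7 members changed sign, none of them called. The median of the 52 around each member's own mean ran from -0.65 in wild type A to 0.77 in ga1-3 C, with ga1-3 A at 0.08, whereas over the 12100 it stayed between -0.12 and 0.05.

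On water, ga1-3 seed had a higher mean than wild type seed on KAR1 for 29 of the 52 (55.8%), and every ga1-3 water array lay above every wild type KAR1 array for 12 (23.1%). The shares over the 9743 probe sets were 61.2% and 27.6%, so the members' counts lie near the background.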

How the data were processed

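RNA of whole imbibed seed was measured on 14 single-colour 3' arrays, from 7 ug of total RNA each per the labels' protocols. The deposited values are a linear intensity for each probe set and array, from 3.5 to 39328.1; the authors made it with GCRMA per the submitters' processing notes, which give no version and do not say whether all arrays were normalized together. Scanner values were not used here, so detection and background could not be looked at again.

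From the deposited intensities, log2 values were computed with values under 16 raised to 16. Of 22810 probe sets 64 controls were left out. The annotation names 1 gene for 13513 probe sets and several for 503, and the 8730 others are unnamed here. All 52 members matched a locus of the reference table, 41 being known by locus only. The members and all gene lists were chosen with earlier results of these data known, and role classes were assigned by hand after the members had been found.

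Water and KAR1 arrays of one genotype and letter share their seed per the labels. Their deviations from the group means correlated at r = 0.863, 0.606, 0.554 and 0.704 in the wild type harvests and 0.779, 0.614 and 0.567 in those of ga1-3, in the order of their letters. Harvests B and C of ga1-3 correlated as highly with another batch (0.638 and 0.570), so there the pairing rests on the labels. The 2 arrays of a batch were averaged and counted as 1 replicate in the genotype test. The mean of the 2 arrays is orthogonal to their difference, which the member rule used, but uncorrelated with it only where both treatments vary alike. The floor also ties the rule to signal on the KAR1 arrays. ga1-3 was tested against wild type on these means with limma 3.58.1 in R 4.3.3 (two-sided, robust eBayes with a trend, 5 residual degrees of freedom, Benjamini-Hochberg over 22746 probe sets, call at 0.05), and every adjusted p comes from this test. Tables were made with Python 3.11.15 and pandas 2.3.3.

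Named genes are the 25 members with the largest mean, up to 10 called members in each direction without overlap, members of the fixed lists, those next to the threshold, up to 5 per role class, pairs of a family or neighbourhood, and the 4 with the largest and the 4 with the smallest genotype difference in the KAR1 values. CP1, BGLU28 and AT3G47800, which missed the rule by 1 harvest, and further called members were added after their values were seen. Array clusters came from average linkage on the spiked-in controls, with 3 as a chosen number. Alternatives were other floors, a filter on dim probe sets, arrays as samples, replicate blocks, single treatments, quantile normalization, plain eBayes, the cluster as a term and leaving out each seed batch. Promoter motifs were not analysed here.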

Additional observations from a re-analysis of the deposited data

Results flagged for a closer look

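In 104 checks of the 4 wild type seed batches (the level and the KAR1 difference of each member), 6 had 1 batch far from the other 3, where chance gives about 1 in 20. All 6 concern the level, as the mean of the water and KAR1 array on the log2 scale. The batch mean of AT2G16660, the major facilitator, was 5.20 in wild type B against 4.59 to 4.67 in the others. AT3G02910 was also high in wild type B, at 10.56 against 9.73 to 9.83. Wild type D was low for AT1G70420, at 5.34 against 5.83 to 5.90, and for AT1G73120, at 5.89 against 6.55 to 6.65. AT4G00895 was high in wild type D, at 4.52 against 4.14 to 4.20, close to the floor of 4. The methyltransferase AT2G41040 was low in wild type A, at 4.67 against 5.12 to 5.21.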

How the results depend on the processing

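The main fit called 19 members higher and 2 lower in ga1-3, beside 2462 and 1210 of all 22746 probe sets. The calls over all tested probe sets follow in brackets for each alternative. A filter on dim probe sets gave 30 and 2 (2845 and 1447 of 10706). A floor of 32 gave 28 and 1 (2625 and 1211). No floor gave 26 and 2 (4581 and 4351), and quantile normalization 17 and 2 (1856 and 1731). Water arrays alone gave 12 and 1 (1965 and 896), and KAR1 arrays alone 22 and 2 (2654 and 1328). Plain eBayes gave 7 and 0 (1333 and 688), and the cluster as a term 5 and 0 (627 and 326). Cluster 2 alone holds the single ga1-3 batch A, so no calls are counted there. The median difference of the members in it was 0.44. With 14 arrays as samples there were 35 and 2 without a replicate block (3951 and 2049). The seed batch as random replicate block gave 34 and 2 (3693 and 1862), with a correlation of 0.29 shared by all probe sets. Genotype varies only between the 7 seed batches, so the 14 arrays are not independent replicates of it. These counts are therefore not equivalent to those on batch means. The letter as a fixed replicate block across genotypes, where it names different seed, gave 34 and 3 (3332 and 1684). Leaving out 1 seed batch gave 14 to 26 higher and 1 to 3 lower (1571 to 3165 and 684 to 1897). The cause of these shifts was not tested. None of the 21 calls changed sign under these settings. The rule itself found 40 members with a floor of 32, 65 with none, 87 at a mean of 0.3 and 33 at 0.5, 59 after quantile normalization, and 48 to 71 without 1 harvest; cluster 2 alone, added after seeing the data, gave 170 and the other harvests 47. The median of the members' means lay between 0.45 and 0.75 under all of these. Quantile normalization moved the median genotype difference of all probe sets above the floor from 0.08 to -0.02. Some arrays lay at or under 16 for 8 members, but dependence on dim signal was not limited to these. With a floor of 32, 40 of the members still met the rule. AT4G27280 and AT5G35970, with no array at or under 16, fell under the threshold of 0.4, from means of 0.55 and 0.43 to 0.27 and 0.36. The 7 seed batches in 3 clusters limit the genotype comparison.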

Other observations

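Beyond the probe sets with 1 gene, 83 more had all 7 KAR1 differences above 0 and a mean of at least 0.4. Of these 82 are unnamed here and 1 has several genes, and their means ran from 0.40 to 2.63 with a median of 0.58, so the largest differences of the arrays lie partly outside the 52.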
